A study of Mus musculus with 4 samples.

Results

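Trp53rka, E2f1, Nup50 and Taf1a are 4 mouse genes whose products work in the cell cycle and in the nucleus, and each was represented by 1 probe on arrays that measured N6-methyladenosine (m6A) in brown preadipocytes. They were the members of this functional group among 45 genes whose probe carried an accession that could be named, and all 4 belonged to the 41 genes with a usable probe. Cells of the EP3 conditional knockout (cKO) were from mice that carried floxed EP3 alleles and a Cre driven by Myf5, a gene of muscle and brown fat progenitors, and the control cells from mice with the floxed alleles and no Cre listed. Both were sorted from mice of 8 weeks, male per the labels of the IP samples, as Lin−CD29+CD34+Sca1+ cells, and each genotype was 1 pool of approximately 30 mice. RNA bound by an anti-m6A antibody (IP, labelled with Cy5) and RNA left in the supernatant (Sup, labelled with Cy3) were hybridised together, so that 4 samples lay on 2 arrays, 1 per genotype. EP3 is a receptor for prostaglandin E2. A control with Cre alone was not analysed here, so Cre and EP3 loss cannot be told apart. The gene of EP3 was also not among the named probes, so the named probes give no check of the genotype labels.

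m6A is the most common internal methyl mark of messenger RNA. A methyltransferase complex writes it in the nucleus, mostly near stop codons and in 3′ untranslated regions, and reader proteins that bind it affect splicing, translation and decay of the transcript. E2F1 is a transcription factor that switches on genes of DNA replication and is held inactive by the retinoblastoma protein until a cell commits to division. TAF1A is a subunit of the selectivity factor that recruits RNA polymerase I to ribosomal RNA genes. NUP50 is a mobile protein of the nuclear pore basket that binds importin alpha and helps protein import. Trp53rka is 1 of a pair of mouse genes for the p53-regulating kinase, which in human and yeast cells is the kinase-like subunit of the KEOPS complex that modifies transfer RNA.

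Trp53rka has a close copy, Trp53rkb, and the RefSeq table lists the same clone name, 2810408M09Rik, as a synonym of both. The probe A_51_P468505 carried the transcript NM_001007581 of Trp53rka. The other probes were A_51_P120636 for E2f1 (NM_007891), A_51_P411297 for Nup50 (NM_016714) and A_51_P516057 for Taf1a (NM_021466). No named probe belonged to Trp53rkb. The promoter windows of the pair are shown because they make the likeness visible, with the longest run shared by their 300-base windows, 76 bases, in capitals. In Trp53rkb this run ends at the edge of the window, so its full length is not given here. They were taken from RefSeq on build GRCm38.p6 and are written 5′ to 3′ on the strand of each gene, with up to 30 bases on either side of the run. The probe's own sequence was not used here, so a share of the signal from Trp53rkb transcripts was not tested. The stretch of Trp53rka lies at chr2:165493269-165493404 on the minus strand, and that of Trp53rkb at chr2:166793711-166793816 on the plus strand.
Trp53rka: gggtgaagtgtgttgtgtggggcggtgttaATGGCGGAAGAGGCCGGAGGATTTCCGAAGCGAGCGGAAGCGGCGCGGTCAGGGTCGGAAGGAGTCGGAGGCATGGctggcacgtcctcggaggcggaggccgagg
Trp53rkb: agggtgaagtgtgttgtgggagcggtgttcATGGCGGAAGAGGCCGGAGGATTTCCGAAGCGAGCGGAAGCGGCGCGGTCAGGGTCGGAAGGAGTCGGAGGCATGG

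Each of the 4 probes was spotted 10 times on each array. The 61141 array probe spots held 60691 distinct probes, so nearly all other probes had a single spot. Shares, percentiles and SDs over usable probes thus rest mostly on single spots, which are noisier than a mean over spots. A spot of the Nup50 probe and a spot of the Taf1a probe carried an outlier flag and were left out, which gave 10 spots each for Trp53rka and E2f1 and 9 each for Nup50 and Taf1a. Spots of a probe lie on the same array and measure the same RNA, so the SD over spots is a technical spread. With 1 array per genotype no difference has a replicate check, no p-value was computed, and array, pool and genotype cannot be told apart. The precision is limited by having so few arrays. The median processed signal of the 43838 usable probes was 413 in cKO IP, 474 in control IP, 411 in cKO Sup and 468 in control Sup. Between 76.3% and 82.3% of unflagged array spots were well above background in the 4 samples.

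The E2f1 probe was dim, and its IP signal was the one that differed most between genotypes. Its processed signal in IP ran from 96.9 to 132 (median 117) over the cKO spots, against 313 to 367 (median 349) over the control spots. In Sup it ran from 144 to 186 (median 169) in cKO, against 208 to 273 (median 237) in control. In these processed signals, before scaling, the cKO spots therefore lay below the control spots in both fractions, without overlap. Without dye normalisation or scaling, the median background-subtracted signal in Sup was 48.4 in both genotypes.

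The Trp53rka probe differed in the opposite way in the unbound fraction. In IP its processed signal ran from 172 to 255 (median 203) in cKO, against 385 to 457 (median 426) in control. In Sup it ran from 76.9 to 121 (median 100.1) in cKO, against 62.2 to 96.6 (median 83.8) in control. The genotypes were apart in IP and overlapped in Sup, where this probe gave its weakest signals.

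The Nup50 and Taf1a probes were far brighter. Nup50 in IP ran from 6535 to 7097 (median 6633) in cKO, against 10524 to 10973 (median 10665) in control, and in Sup from 2438 to 2770 (median 2615) in cKO, against 2700 to 3152 (median 2862) in control. Taf1a in IP ran from 1844 to 1987 (median 1906) in cKO, against 2358 to 2545 (median 2480) in control, and in Sup from 502 to 591 (median 532) in cKO, against 520.1 to 630.1 (median 599.6) in control. For both genes the IP spots of the genotypes did not overlap and the Sup spots did. These signals are before scaling, and the median of all probes was also lower on the cKO array.

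**Figure D1:**
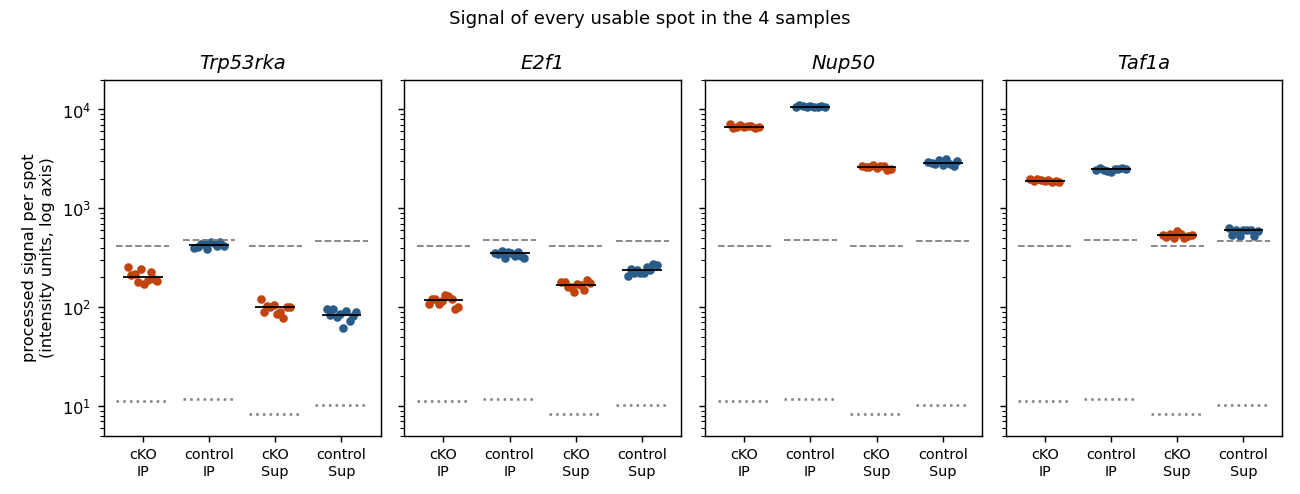
Processed signal of every usable spot (points, intensity units on a log axis) of Trp53rka, E2f1, Nup50 and Taf1a in cKO IP, control IP, cKO Sup and control Sup, with the median of the spots (black bar), the median usable probe of that sample (dashed) and the 99th percentile of negative control spots (dotted). The Trp53rka and E2f1 spots sit below the median usable probe in all 4 samples, and the Nup50 and Taf1a spots above it.

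To set the fractions against each other, the signals of each sample were scaled by the median of its usable probes, and log2(IP/Sup) was called the m6A ratio. Fraction and dye are the same thing on these arrays, so a ratio also carries the dye bias of its probe. Each fraction was scaled to its own median, so a ratio of 0 does not mean equal amounts of bound and unbound RNA. In cKO the m6A ratio was 1.09 ± 0.22 for Trp53rka, and in control 2.34 ± 0.23 (SD, n = 10 spots each). For E2f1 it was -0.54 ± 0.22 in cKO, and 0.51 ± 0.20 in control (SD, n = 10 spots each). E2f1 was thus the 1 gene of the 4 for which Sup exceeded IP in cKO, while IP exceeded Sup in control, and every spot lay on that side of 0 in both genotypes. With samples scaled to the ERCC spike-in probes the control ratio of E2f1 was -0.083, so that Sup exceeded IP in both genotypes.

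For Nup50 the m6A ratio was 1.36 ± 0.04 in cKO, and 1.87 ± 0.09 in control (SD, n = 9 spots each). For Taf1a it was 1.83 ± 0.08 in cKO, and 2.08 ± 0.12 in control (SD, n = 9 spots each). IP exceeded Sup at least 2-fold for 3 of the 4 genes in cKO and for the same 3 in control, Trp53rka, Nup50 and Taf1a, against 16.3% of usable probes in cKO and 17.6% in control. In cKO, Trp53rka was under 2-fold with plain background subtraction (0.95) and with normexp, loess and Aquantile (0.42), and in the authors' deposited table so were Trp53rka (0.22), Nup50 (0.48) and Taf1a (0.95). In control the 3 genes were past 2-fold in each of these settings. Among usable probes, 97.4% had a lower control ratio than Trp53rka, 95.9% a lower one than Taf1a, 94.2% a lower one than Nup50 and 71.6% a lower one than E2f1. In cKO those shares were 85.3% for Trp53rka, 94.9% for Taf1a, 89.5% for Nup50 and 28.8% for E2f1. The place of Trp53rka and E2f1 among all probes thus differed between the genotypes more than that of Nup50 and Taf1a.

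**Figure D2:**
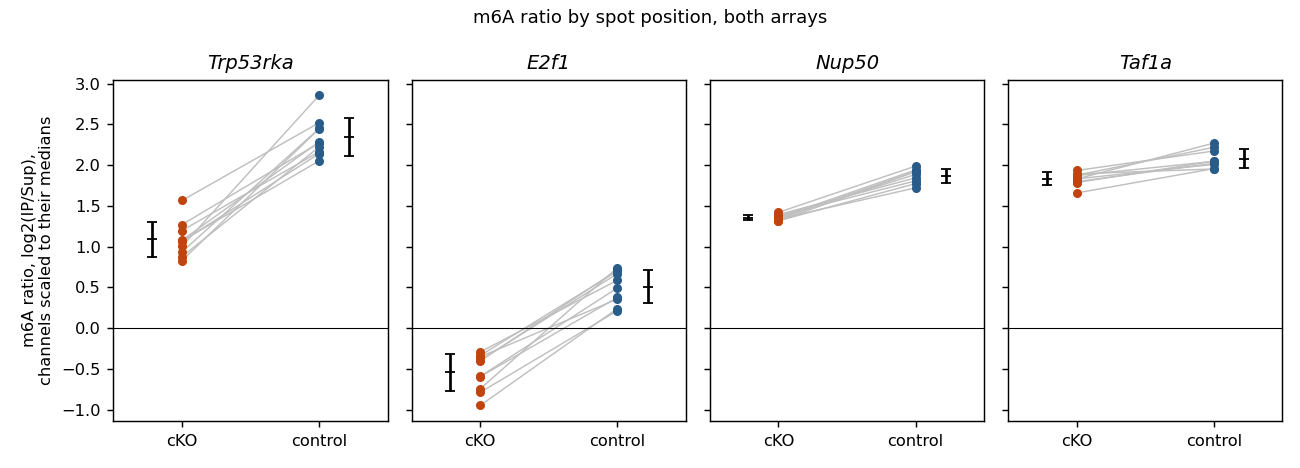
m6A ratio, log2(IP/Sup) with each sample scaled to its median, of every usable spot in cKO and control, with lines joining spots at the same position on the 2 arrays and bars for the mean and SD over spots. Every line runs lower in cKO, and for Taf1a the highest cKO spot, 1.93, lies just below the lowest control spot, 1.95.

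Setting the genotypes side by side gave the difference in m6A ratio between them, with 1 array each. The ratio is relative and the genotypes also differed in Cre. It therefore gives neither the amount of m6A on a transcript nor the effect of EP3 loss alone. The m6A difference, cKO minus control, was -1.25 ± 0.32 (SD, n = 10 spots) for Trp53rka, a ratio 2.38-fold lower in cKO. It was -1.05 ± 0.20 (SD, n = 10 spots) for E2f1, 2.08-fold lower. For Nup50 it was -0.51 ± 0.08 (SD, n = 9 spots), 1.42-fold lower, and for Taf1a -0.25 ± 0.11 (SD, n = 9 spots), 1.19-fold lower. All 4 lay below 0, as did 46.0% of usable probes, and the median of all usable probes was 0.04. The size rule of 2-fold was met by 2 of the 4, Trp53rka and E2f1, against 3.29% of usable probes at least 2-fold lower and 1.99% at least 2-fold higher. Most of those probes had a single spot, while the 4 genes are means over 9 or 10 spots. The shares therefore carry more technical noise than the members' values.

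The spots did not all reach the 2-fold rule. For Trp53rka the difference ran over spots from -1.85 to -0.95, and 7 of 10 were at or below -1. For E2f1 it ran from -1.49 to -0.71, and 7 of 10 were at or below -1. Nup50 ran from -0.61 to -0.38 and Taf1a from -0.44 to -0.06, so that every spot of each gene lay below 0 and no spot of either reached 2-fold. The error that the scanner software gives for its processed signals, combined over the 4 signals of a spot, had a median of 0.37 for Trp53rka, 0.33 for E2f1, 0.29 for Nup50 and 0.29 for Taf1a. The difference of Taf1a was smaller than that error, and those of the other genes were larger. The error is that of a single spot, while the differences are means over spots. For Taf1a the SD observed over spots was 0.11.

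Splitting the difference by fraction set the 4 genes apart from each other. E2f1 was lower in cKO in both fractions, with -1.37 ± 0.13 in IP and -0.32 ± 0.15 in Sup (log2, SD, n = 10 spots each). Trp53rka was lower in IP, -0.85 ± 0.27, and higher in Sup, 0.40 ± 0.15 (log2, SD, n = 10 spots each). Nup50 differed by -0.47 ± 0.06 in IP and 0.04 ± 0.06 in Sup, and Taf1a by -0.17 ± 0.05 in IP and 0.07 ± 0.10 in Sup (log2, SD, n = 9 spots each), so the Sup values of both lay within their spot spread of 0. E2f1 was the 1 gene of the 4 at least 2-fold lower in IP, against 4.51% of usable probes, and 0 of the 4 differed 2-fold in Sup, against 0.623% of probes lower and 1.00% higher. The IP difference of E2f1 was -0.69 with normexp, loess and Aquantile and -0.80 with the ERCC probes, short of 2-fold, and that of Trp53rka was -1.05 without median scaling, -1.35 in the authors' deposited table and -0.28 with the ERCC probes. The Sup difference of Trp53rka was 0.056 with normexp, loess and Aquantile and 0.22 without median scaling.

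Abundance was taken as log2(IP + Sup) after scaling, which stands only roughly for a gene's total RNA. The fractions were labelled with different dyes, and each was divided by its own median, so the proportion of bound to unbound RNA was not kept. In bulk samples such as these, fewer cells that express a gene and less RNA per cell cannot be told apart. The abundance difference was -0.84 ± 0.08 for E2f1, 1.80-fold lower in cKO, with every spot between -0.98 and -0.72 (SD, n = 10 spots). It was -0.55 ± 0.21 for Trp53rka (SD, n = 10 spots), -0.35 ± 0.04 for Nup50 and -0.12 ± 0.05 for Taf1a (SD, n = 9 spots each). Of the 4 genes, 0 were 2-fold lower, against 1.87% of usable probes. The abundance difference of E2f1 was -1.04, past 2-fold, without median scaling, and -0.43 with normexp, loess and Aquantile.

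**Figure D3:**
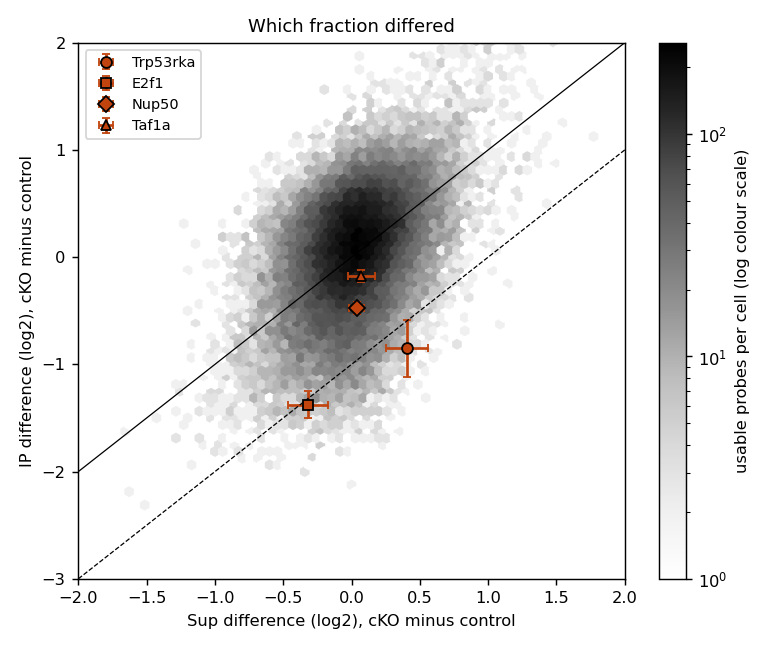
IP difference against Sup difference, cKO minus control (log2), for usable probes within the axis limits (grey, number per cell on a log colour scale) and for the 4 genes (symbols, bars are SD over spots). On the solid line the m6A ratio is equal in both genotypes and on the dashed line it is 2-fold lower in cKO. E2f1 lies to the lower left of the centre, Trp53rka to the lower right, and Nup50 and Taf1a below the centre with Sup near 0.

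The probes of the genes differed in brightness. Averaged over the 4 samples on the log2 scale, 21.8% of usable probes were dimmer than that of Trp53rka and 28.0% dimmer than that of E2f1, against 87.1% for Nup50 and 69.0% for Taf1a. Brightness depends on the probe as well as on the RNA, so these shares do not rank transcript levels. The share of probes at least 2-fold lower in m6A ratio was 2.96% in the dimmest of 4 equal bins of usable probes, which held Trp53rka, and 3.28% in the next, which held E2f1. It was 3.65% in the bin of Taf1a and 3.28% in the brightest bin, that of Nup50. Within its own bin, 1.29% of probes lay below Trp53rka, 2.66% below E2f1, 12.1% below Nup50 and 26.0% below Taf1a. These places set means over spots against probes that mostly had a single spot.

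**Figure D4:**
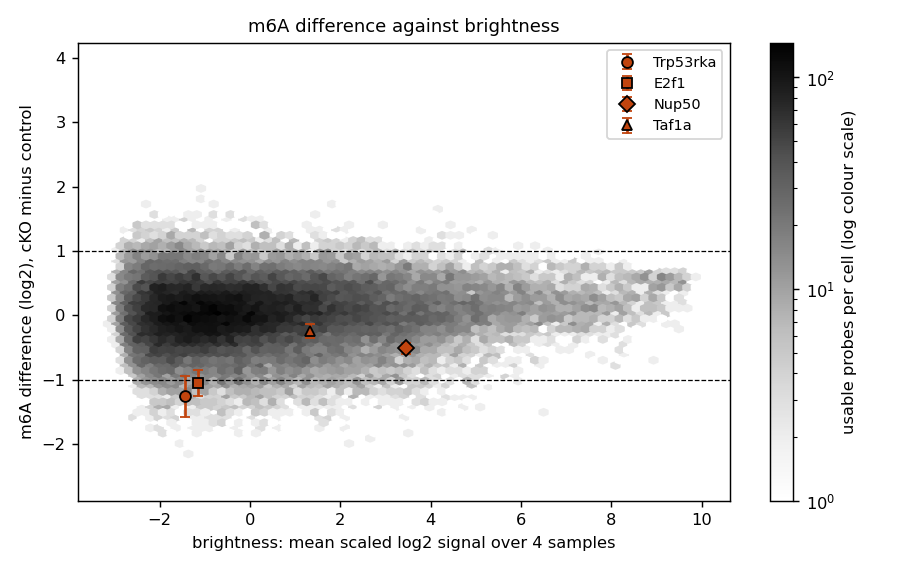
m6A difference, cKO minus control (log2), against brightness, the mean scaled log2 signal over the 4 samples, for all usable probes (grey, number per cell on a log colour scale) and the 4 genes (symbols, bars are SD over spots). Dashed lines mark 2-fold in either direction. Trp53rka and E2f1 lie at the dim end below the lower line, and Taf1a and Nup50 between the lines at higher brightness.

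For the dim probes the local background was a large part of the pixel signal. In control Sup, the weakest signal, the Trp53rka spots had a median pixel value of 42.5 on a local background of 22.5, 1.92 times the background. The excess was 2.38 SDs of the background pixels. In cKO Sup the same probe stood at 54 on 22, in cKO IP at 77 on 19 and in control IP at 181.5 on 19. The weakest signal of E2f1 was cKO IP, at 52.5 on 19, an excess of 3.52 background SDs, against 150 on 19 in control IP. All spots of both probes were marked by the scanner software as well above background in each of the 4 samples, and the lowest Trp53rka spot in control Sup had 6.02 times the 99th percentile of the negative control spots.

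By pixel value the weakest signals of Nup50 and Taf1a were those of control Sup. The Nup50 spots had a median of 655 there on a background of 22, and the Taf1a spots 143 on 22. The error given by the scanner software was 16% of the signal for Trp53rka in control Sup, its largest, 13.4% for E2f1 in cKO IP, and at most 10.2% for Nup50 and Taf1a in any sample. In control Sup the SD over spots was 0.19 (log2) for Trp53rka, 0.13 for E2f1, 0.10 for Taf1a and 0.07 for Nup50.

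The change of background that would bring an m6A difference to 0 was computed for 1 sample at a time. For Trp53rka the signal in control Sup would have to be higher by 23.4 units, about the local background itself, or that in cKO Sup lower by 16.6 units. For E2f1 the signal in cKO IP would have to be higher by 32.7 units, 3.45 SDs of the background pixels there, or that in cKO Sup lower by 25.1 units. For Nup50 the smallest such change was 227 units, in cKO Sup. For Taf1a it was 21.1 units, in control Sup, a change of 2.86 background SDs against a background-subtracted signal of 113. These SDs are over pixels. In the same units, the SD over background-subtracted negative control spots was 1.89 in cKO IP, 1.76 in cKO Sup and 1.70 in control Sup.

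Adding a constant to every processed signal shrinks the differences of dim probes more than those of bright ones, by arithmetic. The values below thus restate the brightness of the probes and are no further result about the genes. With 50 added, Trp53rka stood at -1.02 and E2f1 at -0.83, and with 200 added at -0.68 and -0.52. Nup50 stayed at -0.51 with either amount, and Taf1a at -0.25. The SD of the difference over all usable probes was 0.50 with nothing added, 0.44 with 50 added and 0.37 with 200 added, so differences over the whole array shrank as well.

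The scanner software's background-subtracted signal without its dye normalisation, an alternative chosen after seeing the data, gave -1.29 for Trp53rka, -1.10 for E2f1, -0.53 for Nup50 and -0.28 for Taf1a, with 3.42% of usable probes at least 2-fold lower. The other ways of treating the background, up to normexp without loess, also left out the dye normalisation, so each differs from the reported values in both choices. Plain subtraction of local pixel medians gave -1.17 for Trp53rka and -1.06 for E2f1, with 3.24% of usable probes at least 2-fold lower. With the negative control spots set to 0, an alternative chosen after seeing the data, they stood at -1.17 and -0.99 (3.05% of probes). With no background subtraction they stood at -0.74 and -0.71 (2.33% of probes). Nup50 stood at -0.60 there and Taf1a at -0.29. Normexp with an offset of 50 gave -0.46 for Trp53rka and -0.41 for E2f1 (2.37% of probes), with Nup50 at -0.73 and Taf1a at -0.36. Nup50 was then the lowest of the 4. This offset was added to pixel values, whose median excess over background was 20.75 for Trp53rka in control Sup and 33 for E2f1 in cKO IP. An offset larger than these signals shrinks the differences of dim probes by arithmetic. With loess and Aquantile added, Trp53rka stood at -0.61 and E2f1 at -0.53. With loess and Aquantile Nup50 stood at -0.44 and Taf1a at -0.22, so that in this setting the 4 genes lay between -0.61 and -0.22 and 0 of them were 2-fold lower, against 1.15% of usable probes. The share of probes at least 2-fold lower was 3.42% without median scaling. It was 2.37% with a pseudocount of 50, which was added to processed signals and not to pixel values. It was 3.46% among probes brighter than the median usable probe and 6.33% with no filter on signal.

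**Figure D5:**
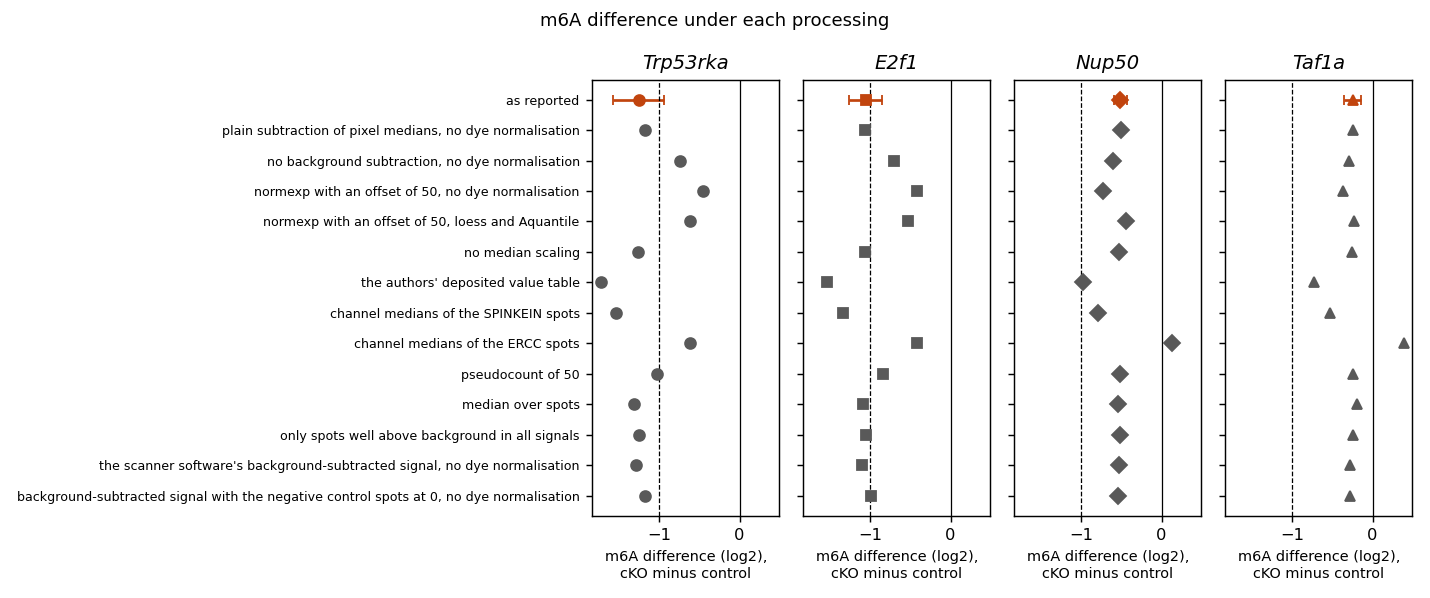
m6A difference, cKO minus control (log2), of the 4 genes as reported (colour, bar is the SD over spots) and under 13 other ways of processing (grey), with lines at 0 (solid) and at 2-fold lower (dashed). Trp53rka and E2f1 move toward 0 under normexp and where background is kept. Nup50 and Taf1a move away from 0 without background subtraction and with normexp alone, and cross 0 when scaled to the ERCC spots.

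The scaling set the sign of the smaller differences. Trp53rka and E2f1 lay below 0 under all 13 alternatives. These include a filter that kept every member spot, so it could not change a value, and alternatives chosen after seeing the data. Nup50 and Taf1a lay below 0 under 12, with 0.13 and 0.39 when samples were scaled to the medians of 5 ERCC spike-in probes. That scaling moved the median of all usable probes by 0.64, and relative to that median Nup50 stood at -0.55 and Taf1a at -0.29, values that a change of scaling alone cannot alter. Values in the authors' deposited table gave -1.72 for Trp53rka, -1.53 for E2f1, -0.98 for Nup50 and -0.73 for Taf1a, with the median of all usable probes moved by -0.48. Of the probes past 2-fold in either direction, 37.7% were higher in cKO with median scaling, 1.90% in the authors' deposited table, 7.05% with the SPINKEIN spots and 98.8% with the ERCC spots. At least 2-fold lower were 13.3% of usable probes in the authors' deposited table, 7.73% with the SPINKEIN spots and 0.285% with the ERCC spots.

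Among the other named genes, those with the most similar pair of IP and Sup differences were found by the smallest distance over these 2 values. Lhfp lay nearest to Trp53rka, at a distance of 0.14, with -0.71 in IP and 0.41 in Sup, followed at 0.53 by Nup50. Bambi, a decoy receptor of TGF-beta signalling, lay nearest to E2f1 at 0.37, with -1.02 in IP and -0.21 in Sup, followed at 0.55 by the nuclear receptor gene Ppara, with -0.98 in IP and -0.71 in Sup. For Nup50 the nearest were Acaa2 at 0.19 and Tm9sf1 at 0.20, and for Taf1a they were Duox1 at 0.05 and Olfr1307 at 0.17. The distances rest on 2 arrays and 41 genes. Set among these 41 genes, Trp53rka had the second lowest m6A difference and E2f1 the fourth lowest, and E2f1 had the second lowest IP difference.

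Partners of the 4 genes could not be set beside them. Of 32 genes of the cell cycle and the E2F pathway, 5 of the KEOPS complex, 8 of RNA polymerase I initiation and 13 of the nuclear pore and import, 0 had a named probe. The sorted cell type was likewise not checked, since 1 of 24 marker genes of preadipocytes and other cell types had one. This was Mbp, a myelin gene, with median processed signals of 142 in cKO IP, 195 in control IP, 156 in cKO Sup and 123 in control Sup. The part of other cell types in the differences was not tested.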

How the data were processed

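Brown preadipocyte RNA was measured on 2 two-colour arrays, 1 per genotype, both read in the same scan per the file headers. Per the file headers and the submitters' processing notes, Agilent Feature Extraction 11.0.1.1 made the deposited values. The deposited processed signal is a linear intensity with the local background subtracted and dyes normalised within the array. Pixel medians are deposited as raw intensity and flags as 0 or 1. In the authors' deposited table, 48973 probes have log2 values. Each column equals log2 of the processed signal minus 1 constant, and the sources used here do not give its origin. Its column medians were -3.85 for cKO IP, -3.36 for control IP, -3.00 for cKO Sup and -2.97 for control Sup.

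Of 62976 spots per array, 61141 were array probes. A probe was usable when at least 0.5 of its spots without outlier flags were well above background in all 4 samples, which left 43838 of 60691 probes (72.2%). Of the members' spots, 0 were saturated. Spots were averaged on the log2 scale. Accessions were named through RefSeq (GRCm38.p6), while the array header names another build, so coordinates are given only for the printed RefSeq stretches. The 2-fold rule is a size rule without a test. The members and lists were chosen with earlier results of these data known. The named genes were the members, the 2 nearest genes to each and any listed partner with a probe. The calculation was tested on simulated data. That simulation added no background and kept Sup equal in both genotypes, so it does not bear on the limits of the dim probes. Alternatives in background, scaling, pseudocount, averaging and filters used limma 3.58.1 under R 4.3.3, Python 3.11.15, numpy 2.4.6 and pandas 2.3.3.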

Additional observations from a re-analysis of the deposited data

How the results depend on the processing

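No paired analysis was possible because each genotype had 1 array. The m6A difference of Trp53rka moved by more than its spot SD to -0.74 without background subtraction, -0.46 with normexp (both also without dye normalisation), -0.61 with loess and Aquantile added, -1.72 in the authors' deposited table and -0.62 with the ERCC spots. E2f1 moved to -0.71, -0.41, -0.53, -1.53 and -0.42 in the same settings, to -1.33 with the SPINKEIN spots and to -0.83 with a pseudocount of 50. Nup50 moved to -0.60 without background subtraction, -0.73 with normexp, -0.98 in the authors' deposited table and -0.79 with the SPINKEIN spots, and turned to 0.13 with the ERCC spots. Taf1a moved to -0.36 with normexp, -0.73 in the authors' deposited table and -0.53 with the SPINKEIN spots, and turned to 0.39 with the ERCC spots. The other alternatives, 8 for Trp53rka, 6 for E2f1, 8 for Nup50 and 9 for Taf1a, moved the value by less than the spot SD. Trp53rka remained at least 2-fold lower under 9 of 13 alternatives and E2f1 under 7. The 13 include the filter to spots well above background, which kept every member spot and so returned the reported -1.25 and -1.05. They also include alternatives chosen after seeing the data. These are the software's background-subtracted signal (-1.29 and -1.10) and the negative controls set to 0 (-1.17 and -0.99). The cause of the moves was not tested.

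The counts of probes at least 2-fold lower and higher in cKO were 1443 and 872. They were 503 and 524 with loess and Aquantile (51.0% higher), 5834 and 113 in the authors' deposited table, 3390 and 257 with the SPINKEIN spots, 125 and 10481 with the ERCC spots, 759 and 390 among the brighter probes, 3840 and 2685 without the filter on signal and 4964 and 4976 with a 1.5-fold rule. The count of higher probes alone moved to 380 without background subtraction (27.1% higher), 165 with normexp (13.7% higher) and 483 with a pseudocount of 50.

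With the ERCC spots, the control ratio of E2f1 turned to -0.083, the IP and abundance differences of Nup50 to 0.10 and 0.065, its Sup difference to -0.025, and the IP and abundance differences of Taf1a to 0.40 and 0.31. The Sup difference of Nup50 turned to -0.080 with loess and Aquantile and to -0.15 without scaling, and that of Taf1a to -0.11 without scaling. Of the ratio, fraction and abundance values under the alternatives, 43 moved by less than the spot SD, 48 by more and 9 turned sign. The weakest Trp53rka signal, in control Sup, exceeded background by 2.38 SDs of the background pixels. For E2f1 the weakest signal, in cKO IP, exceeded background by 3.52 SDs. A change of 16.6 units in cKO Sup would cancel the m6A difference of Trp53rka, and 25.1 units there that of E2f1. For Taf1a, 21.1 units in control Sup would do so. Whether background accounts for these differences was not tested. The Taf1a difference is below the software's error for a single spot. The single array per genotype limits every difference.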

Other observations

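Trp53rka, Nup50 and Taf1a belonged to the 7723 usable probes with IP at least 2-fold over Sup in control. Over these probes the median m6A difference was -0.24, 67.8% lay below 0 and 9.62% were at least 2-fold lower in cKO. Over the 7136 probes with such a ratio in cKO, which also held the 3 genes, the median was 0.06, 45.0% lay below 0 and 2.76% were at least 2-fold lower. Each choice used a ratio that is itself a term of the difference, so neither share is a test. The SD of the m6A ratio over all usable probes was 1.03 in cKO and 1.13 in control.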
